A study of Mus musculus with 4 samples.

Results

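The receptors through which a dendritic cell (DC) reads growth factors and regulatory cytokines were followed across 4 Affymetrix mouse arrays. The 10 genes were Flt3, Csf2ra, Csf2rb, Csf2rb2, Il4ra, Il10ra, Il10rb, Ifngr1, Ifngr2 and Ifnar1. All probe sets annotated to one of these symbols were taken, whatever their values. The 10 genes, of 12393 on the array with a probe set of 1 symbol, had 17 of the 22626 probe sets tested: 16 carry 1 symbol, and 1 is shared by Csf2rb and Csf2rb2. Every one of the 10 genes had at least 1 probe set of its own.

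The first group was DC from spleens of female C57BL/6 mice aged 8 to 12 weeks, killed 24 h after an intraperitoneal injection of 10 µg/kg TCDD in corn oil. The second was DC from mice of the same strain, sex and age that had received DMSO, the solvent, in corn oil. Per the labels 3 mice were injected per group, and 2 arrays were run for each. Pooled spleens were passed over an albumin gradient, and DC were then sorted magnetically to a stated purity above 90%. The labels number the arrays as biological replicates and do not say whether an array had its own mice, so the p-values measure only the spread between these arrays. TCDD is a dioxin and a long-lived ligand of the aryl hydrocarbon receptor, a transcription factor.

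DC development depends on Flt3, a receptor tyrosine kinase for Flt3 ligand. The other receptors have no kinase of their own: ligand binding brings together chains that carry Janus kinases (JAKs), which phosphorylate STAT transcription factors. GM-CSF and IL-4 are the classical factors for growing DC in culture, IL-10 restrains DC, and the interferons raise antigen presentation and antiviral genes.

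Probe sets report log2 values after RMA. This method corrects background, is meant to equalize the distributions of the arrays and combines the probes of a probe set. The values had been rounded to 0.1. A difference is TCDD minus DMSO on this log2 scale, tested with limma over all probe sets. The distributions of the deposited arrays were not equal, since a further quantile normalization still moved differences. That of Flt3 went from -0.30 to 0.10 and that of Ifngr1 from -0.80 to -0.39, while that of Csf2rb stayed at -0.70. The reason was not tested. Levels of different probe sets were not set against each other, since probes differ in how they bind.

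With the promoter table of RefSeq (build GRCm38.p6), 7 of the 10 genes could be matched. Csf2rb, Il10ra and Il10rb were not among them. Each window runs from 250 bases before to 50 bases after the start site. The 3 windows that hold GCGTG, the core of the DNA element bound by the ligand-activated aryl hydrocarbon receptor, are shown here because TCDD acts through that receptor. Capitals mark GCGTG or, where the motif lies on the other strand, CACGC.
Ifnar1: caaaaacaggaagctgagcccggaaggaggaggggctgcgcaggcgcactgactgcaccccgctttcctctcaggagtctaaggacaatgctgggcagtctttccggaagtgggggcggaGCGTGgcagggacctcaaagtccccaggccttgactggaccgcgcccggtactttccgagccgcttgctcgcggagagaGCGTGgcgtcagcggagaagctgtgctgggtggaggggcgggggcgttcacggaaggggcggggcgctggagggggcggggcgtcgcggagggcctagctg
Ifngr1: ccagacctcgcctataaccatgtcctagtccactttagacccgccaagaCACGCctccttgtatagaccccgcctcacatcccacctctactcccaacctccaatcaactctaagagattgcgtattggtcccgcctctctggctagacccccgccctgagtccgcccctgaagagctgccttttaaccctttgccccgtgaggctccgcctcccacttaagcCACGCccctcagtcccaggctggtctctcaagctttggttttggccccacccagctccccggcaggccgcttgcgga
Il4ra: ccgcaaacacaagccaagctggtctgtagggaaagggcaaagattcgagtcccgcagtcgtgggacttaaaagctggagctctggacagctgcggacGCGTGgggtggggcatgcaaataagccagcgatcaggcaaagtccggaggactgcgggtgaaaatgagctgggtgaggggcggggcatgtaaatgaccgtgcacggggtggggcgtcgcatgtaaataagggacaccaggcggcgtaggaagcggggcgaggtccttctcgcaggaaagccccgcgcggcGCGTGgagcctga
The Ifnar1 window is chr16:91484965-91485264, that of Ifngr1 chr10:19591699-19591998 and that of Il4ra chr7:125552021-125552320, all on the plus strand. The capitals begin 130 and 51 bases before the start site in Ifnar1, 201 and 27 bases before it in Ifngr1, and 153 bases before and 37 bases after it in Il4ra. Among all 32851 windows of this length, 32.4% held the motif on either strand. TTCNNNGAA, the element bound by STAT dimers, was found in 2 of the 7 windows, Ifnar1 and Csf2rb2, against 8.3% of all windows. No match of either motif overlapped a match of the other. A match describes the letters only.

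No receptor probe set passed the test at an adjusted p under 0.05. The smallest adjusted p anywhere on the array was 0.349, so that limma made 0 calls among the 22626 probe sets, or 0%. Before adjustment, a p under 0.05 was reached by 13.1% of all probe sets (2958) and by 2 of the 17 receptor probe sets, those of Csf2rb and Ifngr1. The receptors' share was thus near that of the whole array. The smallest p that an exact permutation test allows for 2 arrays against 2 is 0.333, so none was run on single probe sets.

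Every value of the arrays is drawn in the dot plot by probe set. Both TCDD arrays lay below both DMSO arrays in 7 of the 17 receptor probe sets, or 41.2%. Over all probe sets this held in 18.4%. Both TCDD arrays lay above both DMSO arrays in 3 receptor probe sets, or 17.6%, and in 19% of all. Lower without overlap by at least 0.5 were 4 of the 17, or 23.5%, against 10.5% of all probe sets. Higher by as much was 1 of the 17, or 5.88%, near the 4.29% of all. The lower count moved with the scaling: after quantile normalization on top of the deposited values it was 3, against 16.5% of all probe sets, and after cyclic loess 4, against 22.6%. Csf2rb, Il10ra and Ifnar1 were lower without overlap under both, and Ifngr1 under cyclic loess.

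**Figure D1:**
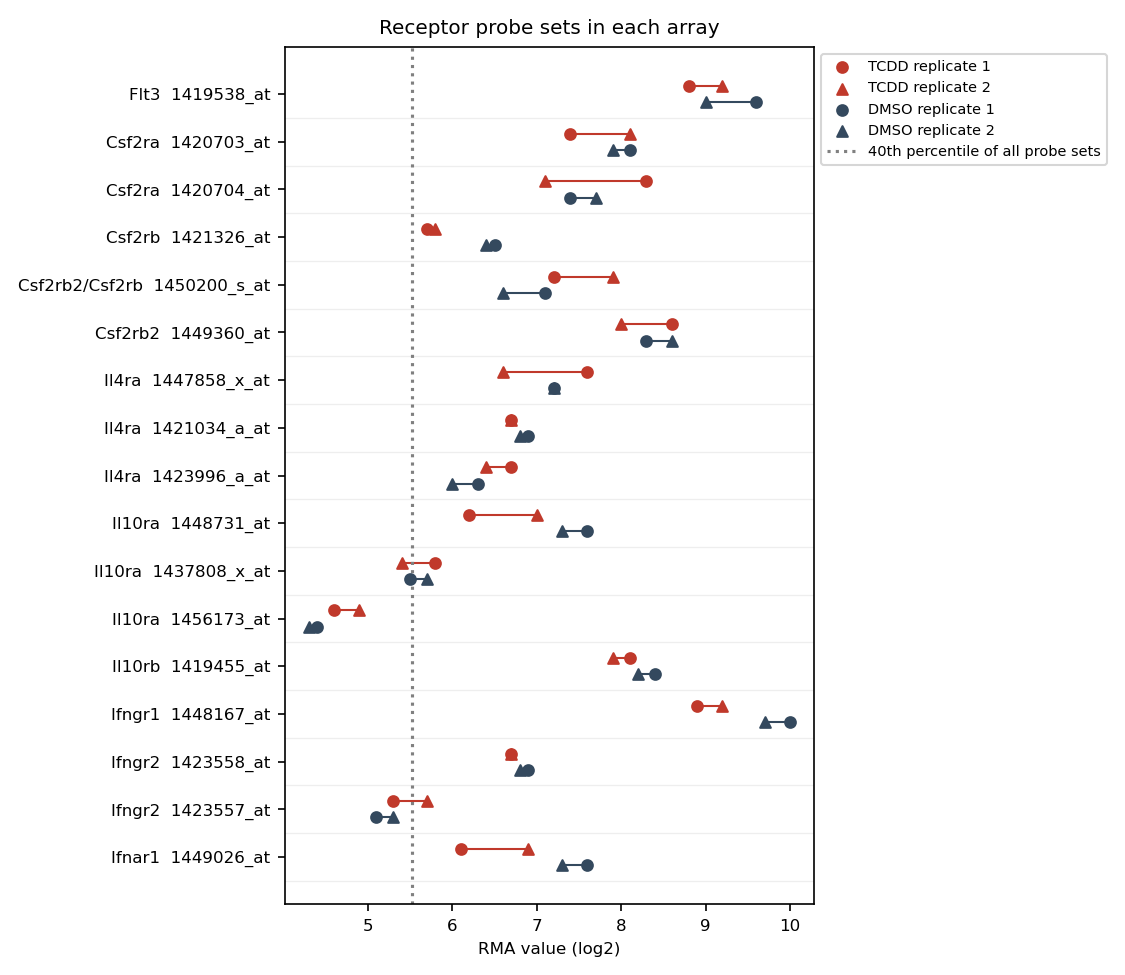
RMA values (log2, x axis) of the 17 receptor probe sets in the TCDD arrays (red, upper line of each row) and the DMSO arrays (dark, lower line); circles are replicate 1, triangles replicate 2, and the dotted line is the 40th percentile of all probe sets. The red points lie wholly left of the dark ones in 7 rows, among them Csf2rb, Ifngr1 and Ifnar1, and wholly right of them in 3.

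The brightest probe set of each gene was taken among those with 1 symbol. This left out the probe set shared by Csf2rb and Csf2rb2, which was higher without overlap, at 0.70. At a mean level of 7.2 it was brighter than the Csf2rb probe set used, at 6.1. On the probe sets taken, all 10 receptors had a difference below 0 in the values as deposited, from -0.95 to -0.10, with a median of -0.30. After quantile normalization 6 of the 10 did, with a median of -0.03, and after cyclic loess 7, with a median of -0.07. The median over all 12393 genes was 0.00, and 49.2% of genes lay below 0. Brightness moved with the sign over the whole array: 54.2% of genes lay below 0 at mean levels from 6 to 8, and 81.5% at levels from 8 to 10. On this choice 6 of the 10 genes were lower without overlap, where 19.4% of all genes were; the count was 3 after quantile normalization, against 15% of all genes, and 4 after cyclic loess, against 21.2%. None was higher without overlap, where 20% of all genes were. Over all 17 probe sets the median was -0.15, and quantile normalization turned it to 0.05.

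The arrays did not behave alike. In TCDD replicate 1 the signal at the 3′ end of Gapdh exceeded that of the middle by 3.6, against 2.0 in TCDD replicate 2 and 1.5 and 2.1 in the DMSO arrays; for beta-actin the gap was 4.0, against 2.0 in TCDD replicate 2 and 1.9 and 2.1 in DMSO. The gap from the 3′ to the 5′ end set TCDD replicate 1 apart less. For Gapdh it was 5.4, against 4.7 in TCDD replicate 2 and 4.1 and 4.9 in DMSO. For beta-actin it was 4.4, against 3.3 in TCDD replicate 2 and 4.0 and 3.7 in DMSO. The array medians lay between 5.9 and 6.0. On their brightest probe sets 20% of all genes were higher and 19.4% lower without overlap. Of 11 measured neutrophil markers 3 were higher without overlap in TCDD, a count near that background, and none was lower. That count misses genes high in TCDD replicate 1 alone. S100a8 stood at 10.3 there, against 5.6 in TCDD replicate 2 and 6.4 and 5.9 in DMSO. S100a9 stood at 9.6, against 5.3 in TCDD replicate 2 and 6.4 and 5.6 in DMSO. Elane, at 6.5 and 6.6 in TCDD and 6.6 in both DMSO arrays, did not show this. The mean log2 level of the 11 neutrophil markers was 7.34 and 6.13 in the TCDD arrays and 6.25 and 5.91 in the DMSO arrays. For 15 macrophage and monocyte markers it was 8.09 and 8.16 in TCDD and 8.75 and 8.56 in DMSO, with 6 lower without overlap. For 10 DC markers, Flt3 among them, it was 9.85 and 10.23 in TCDD and 10.5 and 10.36 in DMSO, with 4 lower without overlap. The DC-defining genes Itgax and Zbtb46 exceeded a log2 value of 5.525, the 40th percentile over all probe sets, in all 4 arrays. Both were among the 4 DC markers lower without overlap, at -0.60 for Itgax and -0.65 for Zbtb46. The 10 DC markers ranged from -1.1 for Cd74 to 0.20 for Fscn1, both with overlap, with a median of -0.375. Itgax lay at mean levels from 8 to 10, where 81.5% of all genes lay below 0. In sorted pools, fewer cells of a type and less RNA per cell cannot be told apart, and the part of these shifts in the receptor values was not tested.

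The type I interferon receptor chain Ifnar1, which binds interferon alpha and beta together with Ifnar2, had the largest difference among the receptors. Its probe set stood at 6.1 and 6.9 in the TCDD arrays, against 7.6 and 7.3 in the DMSO arrays. Both TCDD arrays were lower, and TCDD replicate 1 lay furthest down, at -1.35 from the DMSO mean against -0.55 for TCDD replicate 2. The difference was -0.95 (SE 0.353, 95% interval -2.07 to 0.17, n = 2 arrays per group, limma adjusted p = 0.435), or 0.518 times the DMSO level. Of all probe sets 3.13% differed by as much or more in this direction, and the median difference of probe sets of similar brightness, within 0.5 of its mean level, was -0.10. It was -0.81 under quantile normalization and -0.87 under cyclic loess.

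Its partner chain Ifnar2 stood at 7.4 and 7.4 in TCDD and at 7.8 and 7.9 in DMSO on its brightest probe set. The groups did not overlap, and the 2 TCDD arrays gave the same value. The difference was -0.45 (SE 0.0744, limma adjusted p = 0.349). In the GRCm38.p6 gene table Ifnar2, Il10rb, Ifnar1 and Ifngr2 follow each other on chromosome 16 with no other protein-coding gene between them. On their brightest probe sets, as deposited, all 4 genes of this cluster were lower in TCDD without overlap, at -0.45, -0.30, -0.95 and -0.15, where 19.4% of all genes were. Under quantile normalization and under cyclic loess Il10rb (-0.01 and -0.04) and Ifngr2 (-0.05 and -0.10) overlapped, whereas Ifnar2 (-0.20 and -0.26) and Ifnar1 did not, and the other probe set of Ifngr2 stood at 0.30.

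The ligand-binding chain of the interferon gamma receptor, Ifngr1, stood at 8.9 and 9.2 in the TCDD arrays and at 10.0 and 9.7 in the DMSO arrays. The gap between the groups was wider than the spread of 0.3 within either. The difference was -0.80 (SE 0.183, 95% interval -1.38 to -0.22, limma unadjusted p = 0.0218, adjusted p = 0.379), or 0.574 times the DMSO level. Probe sets of similar brightness had a median of -0.40. Under quantile normalization the difference was -0.39 and the groups overlapped, while under cyclic loess it was -0.49 without overlap.

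The signalling chain Ifngr2, which brings JAK2 to the interferon gamma receptor, was measured by 2 probe sets. The brighter, 1423558_at, gave 6.7 in both TCDD arrays and 6.9 and 6.8 in the DMSO arrays, a difference of -0.15 (SE 0.0744, 95% interval -0.39 to 0.09). The nearest values of the groups were 0.1 apart, which is the rounding step of the file. The dimmer, 1423557_at, lay below the 40th percentile of all probe sets on average, at 5.3 and 5.7 in TCDD and 5.1 and 5.3 in DMSO. Its difference was 0.30 (SE 0.192) and the groups met at 5.3, so the 2 probe sets did not share a direction.

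The common beta chain Csf2rb couples the GM-CSF, IL-3 and IL-5 receptors to JAK2. It had the tightest replicates among the larger differences, with 5.7 and 5.8 in the TCDD arrays and 6.5 and 6.4 in the DMSO arrays on 1421326_at. Arrays within a group lay 0.1 apart and the groups 0.6 or more. The difference was -0.70 (SE 0.0848, 95% interval -0.97 to -0.43, limma unadjusted p = 0.00359, adjusted p = 0.349), or 0.616 times the DMSO level. Of all probe sets 7.34% differed by as much or more downward. Probe sets of similar brightness had a median of 0.00. The value was -0.70 under quantile normalization, -0.74 under cyclic loess, -0.65 without TCDD replicate 1 and -0.75 without TCDD replicate 2.

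The mouse has a second beta chain gene, Csf2rb2, beside Csf2rb on chromosome 15, whose product serves the IL-3 receptor. Its own probe set 1449360_at gave 8.6 and 8.0 in TCDD and 8.3 and 8.6 in DMSO. The groups overlapped, and the difference was -0.15 (SE 0.28, 95% interval -1.03 to 0.73); it turned to 0.20 under quantile normalization and 0.13 under cyclic loess. The probe set shared by both genes, 1450200_s_at, ran the other way from Csf2rb's own. It stood at 7.2 and 7.9 in TCDD and 7.1 and 6.6 in DMSO, a difference of 0.70 (SE 0.355, 95% interval -0.42 to 1.82, limma adjusted p = 0.444), or 1.62 times the DMSO level. The nearest arrays of the groups were 0.1 apart and most of the difference lay in TCDD replicate 2, which exceeded the DMSO mean by 1.05; TCDD replicate 1 exceeded it by 0.35. Signal in this probe set cannot be assigned to either gene, so the direction of the beta chains was uncertain.

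Csf2ra encodes the chain that binds GM-CSF itself. On 1420703_at it gave 7.4 and 8.1 in the TCDD arrays and 8.1 and 7.9 in the DMSO arrays, a difference of -0.25 (SE 0.302, 95% interval -1.21 to 0.71). On 1420704_at it gave 8.3 and 7.1 in TCDD and 7.4 and 7.7 in DMSO, a difference of 0.15 (SE 0.506, 95% interval -1.45 to 1.75). Both probe sets overlapped between the groups. The TCDD arrays disagreed in opposite ways: replicate 1 was the lowest of the 4 arrays on the first probe set and the highest on the second.

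Flt3, which in the spleen is largely restricted to DC and their precursors, stood at 8.8 and 9.2 in the TCDD arrays and at 9.6 and 9.0 in the DMSO arrays. The groups overlapped, since DMSO replicate 2 lay between the TCDD arrays. The difference of -0.30 (SE 0.30, 95% interval -1.25 to 0.65, limma adjusted p = 0.676) was close to the median of -0.35 for probe sets of similar brightness. It became 0.10 under quantile normalization and 0.01 under cyclic loess.

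**Figure D2:**
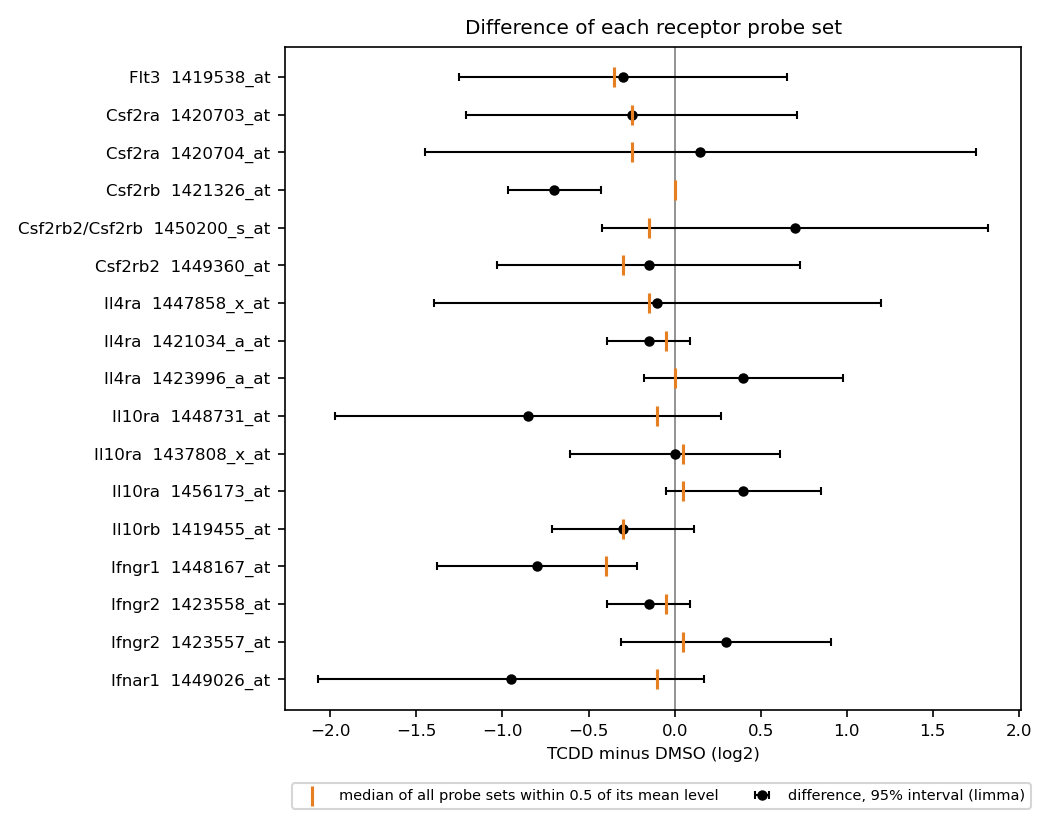
Difference TCDD minus DMSO (log2, x axis) of each receptor probe set with its 95% interval from limma (n = 2 arrays per group), and, as orange ticks, the median difference of all probe sets within 0.5 of its mean level. The intervals of Csf2rb (-0.97 to -0.43) and Ifngr1 (-1.38 to -0.22) exclude 0 before adjustment, and the tick of Flt3 (-0.35) lies beside its point.

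Il10ra, the chain that binds IL-10 and carries JAK1, was measured by 3 probe sets that did not move together. The brightest, 1448731_at, stood at 6.2 and 7.0 in TCDD and at 7.6 and 7.3 in DMSO. The groups did not overlap and TCDD replicate 1 was again the lowest array. The difference was -0.85 (SE 0.353, 95% interval -1.97 to 0.27, limma adjusted p = 0.441), or 0.555 times the DMSO level, and 4.38% of all probe sets went as far or further. Without TCDD replicate 1 it was -0.45 and without TCDD replicate 2 -1.25.

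The other 2 probe sets of Il10ra were dimmer. 1437808_x_at, of a class that Affymetrix marks as open to cross-hybridization, gave 5.8 and 5.4 in TCDD and 5.5 and 5.7 in DMSO, a difference of 0.00 (SE 0.192). 1456173_at, below the 40th percentile of all probe sets, gave 4.6 and 4.9 in TCDD and 4.4 and 4.3 in DMSO. This was higher without overlap by 0.40 (SE 0.143, limma unadjusted p = 0.067), against the direction of the brightest. At such levels a probe set may hold little but background.

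Il10rb, the chain that the IL-10 receptor shares with the IL-22 and interferon lambda receptors, gave 8.1 and 7.9 in the TCDD arrays and 8.4 and 8.2 in the DMSO arrays. All TCDD values were lower, by 0.1 at the nearest. The difference of -0.30 (SE 0.131, 95% interval -0.71 to 0.11, limma adjusted p = 0.441) equalled the median of probe sets of similar brightness. It was -0.01 under quantile normalization and -0.04 under cyclic loess.

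Il4ra, the chain shared by the IL-4 and IL-13 receptors, had 3 probe sets as well. The brightest, 1447858_x_at, gave 7.6 and 6.6 in TCDD and 7.2 in both DMSO arrays, so that the TCDD arrays lay on either side. 1421034_a_at gave 6.7 in both TCDD arrays and 6.9 and 6.8 in DMSO, a difference of -0.15 (SE 0.0744, 95% interval -0.39 to 0.09). 1423996_a_at ran the other way, with 6.7 and 6.4 in TCDD and 6.3 and 6.0 in DMSO, a difference of 0.40 (SE 0.183, 95% interval -0.18 to 0.98, limma adjusted p = 0.444). The last 2 differences kept their signs under quantile normalization, at -0.05 and 0.42, and under cyclic loess, at -0.10 and 0.39.

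Of the 4 receptor genes with several probe sets of their own, Csf2ra, Il4ra, Il10ra and Ifngr2, all had at least 1 probe set with a difference above 0 and 1 below. The 2 receptor probe sets below the 40th percentile, at 0.40 and 0.30, were both above 0. Among the 15 others 11 were below 0, 3 above and 1 at 0. Positions of probes along the transcripts were not used here.

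**Figure D3:**
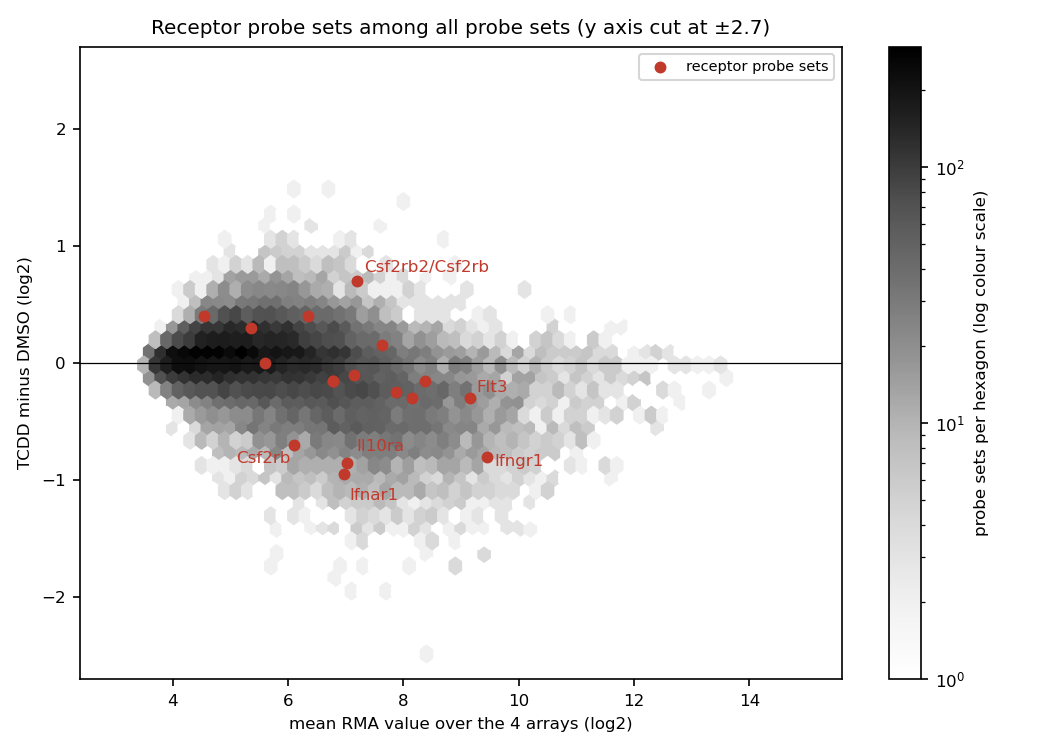
Difference TCDD minus DMSO (log2, y axis) against the mean RMA value over the 4 arrays (log2, x axis) for all probe sets (grey hexagons, darker for more) and the 17 receptor probe sets (red). Probe sets at mean levels from 8 to 10 have a median of -0.35 and those below 6 a median of 0.05; Ifnar1 (-0.95) and Il10ra (-0.85) lie low for their brightness.

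The pattern by array is shown in the grid of settings. Against the DMSO mean, the receptor probe sets had a median of -0.15 in TCDD replicate 1, with 9 of 17 below 0 and a range from -1.35 to 0.75. In TCDD replicate 2 the median was -0.20, with 12 of 17 below 0 and a range from -0.65 to 1.05. The medians of all probe sets were 0.05 and -0.10 in those arrays. The sign depended on the TCDD array in both Csf2ra probe sets, in the Csf2rb2 probe set, in 1447858_x_at of Il4ra and in 1437808_x_at of Il10ra.

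**Figure D4:**
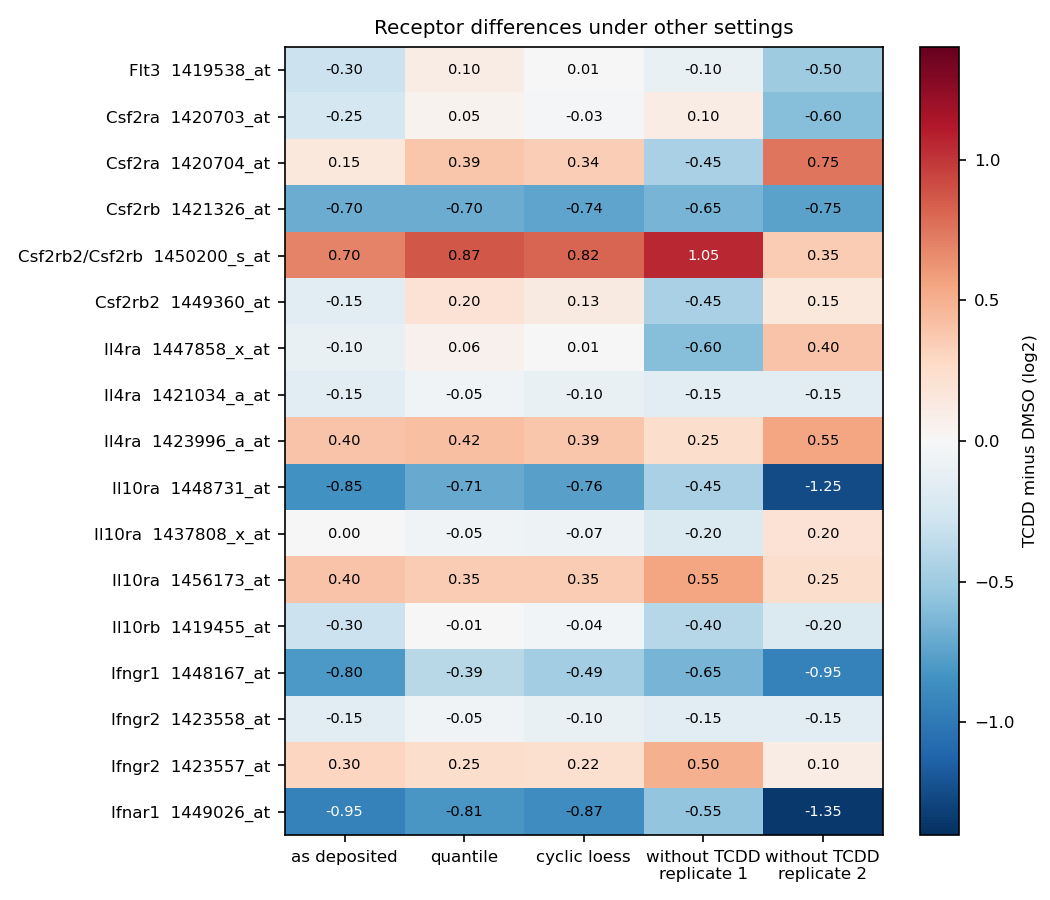
Difference TCDD minus DMSO (log2, colour and printed value) of the 17 receptor probe sets with the values as deposited, after quantile normalization, after cyclic loess and with either TCDD array left out. Csf2rb (-0.75 to -0.65) and Ifnar1 (-1.35 to -0.55) stay below 0 in all 5 columns, whereas Flt3 and Csf2rb2 change sign.

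The genes around these receptors were counted on the brightest probe set per gene, with no member of any list passing the test. The background over all genes was a median of 0.00, with 20% higher and 19.4% lower without overlap. At mean levels from 8 to 10, however, 81.5% of genes lay below 0. The counts and medians of these lists are given for the values as deposited only. Among 11 measured ligand genes 5 were higher without overlap and none was lower, with a median difference of 0.20, but only 4 of the 11 exceeded the 40th percentile. Interferon beta (Ifnb1) stood at 5.4 and 5.9 in TCDD and 5.3 and 5.0 in DMSO, and Il3 at 4.9 and 5.2 in TCDD and 4.7 and 4.4 in DMSO, a difference of 0.50 each, and the mean of both over the 4 arrays lay below that percentile. Il4, at -0.10, was the only ligand with a difference under 0. Of the 4 measured partner chains 2 were lower without overlap, Ifnar2 at -0.45 and Il13ra1 at -0.10, and Il5ra at 0.10 and Il3ra at 0.05 overlapped.

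Among 10 JAK and STAT genes 5 were lower without overlap and 1 higher, with a median of -0.275. Stat3, which carries the IL-10 signal, stood at 8.1 and 8.2 in TCDD and 8.8 and 8.6 in DMSO, a difference of -0.55 (SE 0.11, limma adjusted p = 0.349). Stat5b, a mediator of GM-CSF, stood at 6.6 and 7.1 in TCDD and 7.5 and 7.3 in DMSO, also -0.55 (SE 0.227). Jak3, the kinase of the common gamma chain, was the higher one, with 7.0 and 7.4 in TCDD and 6.9 in both DMSO arrays, a difference of 0.30 (SE 0.174), and Stat6, the mediator of IL-4, differed by 0.10 with overlap.

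Among 23 feedback and target genes of these receptors 6 were lower without overlap and 2 higher, with a median of -0.15. Mx1, an antiviral gene induced by type I interferon, stood at 7.0 and 7.2 in TCDD and 7.8 and 8.2 in DMSO, a difference of -0.90 (SE 0.192, limma adjusted p = 0.351). The kinase gene Pim1, a STAT5 target, stood at 9.0 and 8.5 in TCDD and 10.1 and 9.2 in DMSO, also -0.90 (SE 0.423). Socs1, a feedback inhibitor of interferon receptors, lay on the other side, at 6.1 and 6.7 in TCDD and 5.8 and 5.7 in DMSO, a difference of 0.65 (SE 0.255). Its relative Socs2 differed by 0.60 with overlap, at 9.0 and 8.0 in TCDD and 7.8 and 8.0 in DMSO. Cxcl9, a chemokine gene induced by interferon gamma that was picked after its values were seen, stood at 8.3 and 8.8 in TCDD and 9.4 and 9.3 in DMSO, a difference of -0.80 (SE 0.216). Like Stat3, both Pim1 and Cxcl9 lay at mean levels from 8 to 10, where all probe sets had a median difference of -0.35. Other interferon targets on the list were mixed. Irf9 (-0.60), Ciita (-0.55) and Oas1a (-0.30) were lower without overlap. Ifit1 (-0.35), Irf8 (-0.25), Irf1 (-0.20), Gbp2 (-0.15), Ifit3 (-0.15), Cxcl10 (-0.10) and Irf7 (-0.05) overlapped between the groups.

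**Figure D5:**
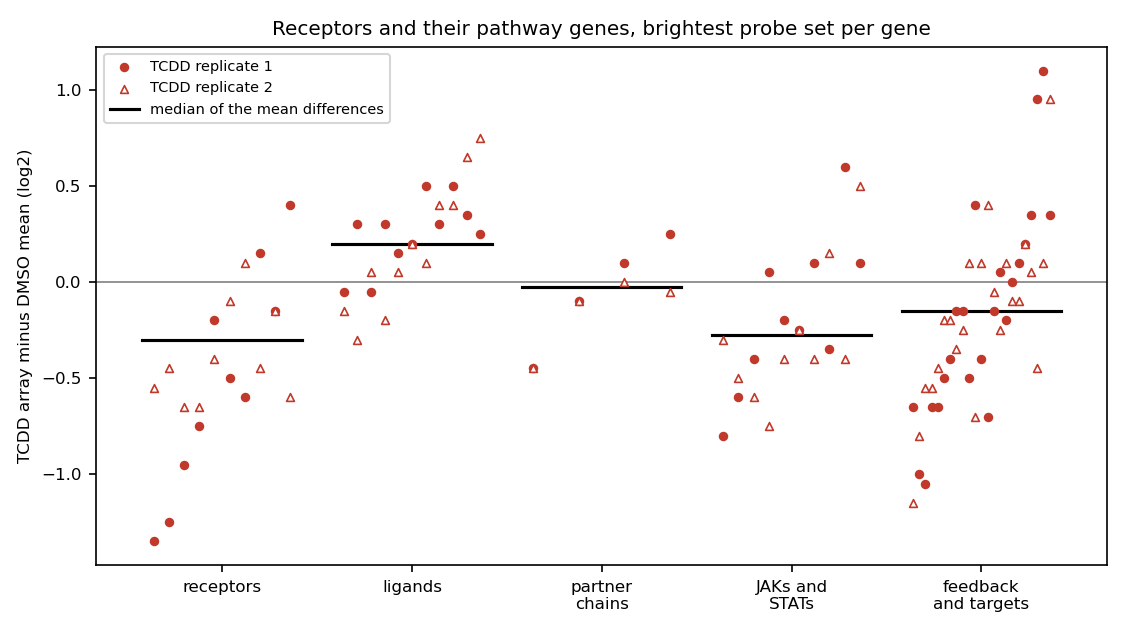
Value of each TCDD array minus the DMSO mean (log2, y axis) for the 10 receptors, 11 ligands, 4 partner chains, 10 JAK and STAT genes and 23 feedback and target genes, each on its brightest probe set; filled circles are TCDD replicate 1, open triangles TCDD replicate 2, and bars the median of the mean differences. With the values as deposited the bar lies at -0.30 for the receptors (-0.03 after quantile normalization) and at 0.20 for the ligands.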

How the data were processed

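The deposited table holds log2 values of 22690 probe sets that the authors made with RMA, per the submitters' processing notes; the sources used here name no program or version. Values are rounded to 0.1. Tests left out the 64 control probe sets. Of the 22626 tested, 20380 had 1 gene symbol in the platform annotation, 691 several and 1555 none; symbols were updated through gene IDs.

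TCDD and DMSO arrays, 2 each, were compared with limma 3.58.1 in R 4.3.3 (lmFit, eBayes, two-sided; prior of 1.03 degrees of freedom), with Benjamini-Hochberg adjustment over all probe sets; the fit was tested on simulated data. No overlap means that the TCDD values were both above, or both below, every DMSO value. The brightest probe set of a gene was taken among probe sets with 1 symbol. All receptor probe sets were named, with up to 4 genes of each other list, those of largest difference in each direction. Cxcl9, the other interferon targets given after it, the named cell type markers and the marker lists' counts stand outside this rule. The receptors and lists were chosen with earlier results of these data known. Alternatives were quantile normalization, median centring, cyclic loess, dim probe sets left out, a replicate block, a trended robust prior, other thresholds and each array left out; a crossed block was added after the data were seen. Arrays give no counts, so their number limits the precision.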

Additional observations from a re-analysis of the deposited data

How the results depend on the processing

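Limma called 0 probe sets in every setting run: quantile normalization, median centring, cyclic loess, dim probe sets left out, the replicate block, a trended robust prior, an adjusted p under 0.10, each array left out and a crossed replicate block chosen after the data were seen. The labels do not say that replicate numbers pair the arrays; replicate 1 minus 2 correlated at -0.189 between the groups. With the replicate block 2047 probe sets had an unadjusted p under 0.05, against 2958 without it, and the crossed block gave 3081. The receptor probe sets lower without overlap numbered 3 under quantile normalization, 4 under cyclic loess and 4 with a difference of at least 0.5, against 7 as deposited; those higher numbered 1 with a difference of at least 0.5, against 3. With each array left out they ranged from 7 to 11 lower and from 3 to 6 higher, where a lone array makes a lack of overlap easier to meet: over all probe sets the shares then ranged from 23.7% to 45.3% lower and from 24.8% to 40.8% higher. The median over the receptor probe sets was 0.05 under quantile normalization. Leaving out dim probe sets or adding the replicate block cannot change a difference. 1437808_x_at of Il10ra, at 0.00 as deposited, could not count as a change of sign. It went to -0.20 without TCDD replicate 1 and to 0.20 without TCDD replicate 2. Of 151 recomputed receptor differences, those 2 settings included, 11 changed sign: 4 under quantile normalization, 3 under cyclic loess and 2 without each TCDD array. These were Flt3 (0.10 quantile, 0.01 cyclic loess), Csf2rb2 (0.20 quantile, 0.13 cyclic loess, and -0.45 to 0.15 with 1 array left out), 1447858_x_at of Il4ra (0.06 quantile, 0.01 cyclic loess, and -0.60 to 0.40), 1420703_at of Csf2ra (0.05 quantile, and -0.60 to 0.10) and 1420704_at of Csf2ra (-0.45 to 0.75); in each range the upper end leaves out TCDD replicate 2 or, for 1420703_at, TCDD replicate 1. The cause was not tested. With 1 array in a group, its spread is taken from the other group. Probe sets near the bottom of the scale need not show a change of their gene.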

Other observations

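Other growth factor and cytokine receptors, 13 genes measured, had a median difference of 0.00 on their brightest probe sets; 2 were higher without overlap, 1 was lower, against 20% and 19.4% of all genes, and none passed the test. Il21r, the IL-21 receptor gene next to Il4ra in the gene table, stood at 5.8 and 5.6 in the TCDD arrays and at 6.3 in both DMSO arrays, a difference of -0.60 (SE 0.102, limma adjusted p = 0.349). Kit, the stem cell factor receptor, also differed by -0.60 (SE 0.411) but overlapped, at 7.7 and 8.5 in TCDD and 8.4 and 9.0 in DMSO. Osmr, the oncostatin M receptor chain, was higher by 0.30 (SE 0.143) without overlap, and Il6st, the signalling chain of IL-6 family receptors, by 0.35 (SE 0.227) with its groups touching at 8.5.

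Markers of type 1 and type 2 conventional DC, both of which carry Flt3, had lower mean levels in both TCDD arrays than in both DMSO arrays. Of 8 measured type 1 markers 4 were lower without overlap, and their mean log2 level was 8.10 and 8.15 in TCDD and 8.75 and 8.71 in DMSO. Among all genes at mean levels from 8 to 10, 81.5% lay below 0. The marker levels are given for the values as deposited only. Of 8 measured type 2 markers 3 were lower without overlap, and the mean level of the 8 was 6.81 and 7.07 in TCDD and 7.41 and 7.46 in DMSO. Those 3, Dtx1 (-1.15), Sirpa (-1.05) and Klf4 (-1.05), also lay at mean levels from 8 to 10. Irf4 (-0.50) and Mgl2 (-0.20) overlapped, and Itgam, Cd4 and Esam stood at 0.00. Of 7 plasmacytoid DC markers 2 were higher without overlap and none was lower. Over all genes 19.4% were lower and 20% higher without overlap, so the plasmacytoid count was close to the background.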
